A study of Mus musculus with 8 samples.

Results

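The nuclear genes for subunits of the mitochondrial respiratory chain were followed in RNA of mouse embryos at the 2-cell stage. They were the rows of the gene table whose symbol began with Nduf, Uqcr, Cox4 to Cox8 or Atp5, with Sdha, Sdhb, Sdhc, Sdhd and Cyc1 added and symbols with the pseudogene ending -ps left out. The rule found 97 of 55487 rows. It left out Ndufb1-ps by its ending, and Atp5o, whose rows carry an Ensembl identifier before the symbol. Of these, 93 were protein-coding and 4 (Cox6c2, Ndufa11b, Ndufb4c and Ndufs6b) were annotated as processed pseudogenes. The protein-coding rows comprised 36 subunit genes of complex I, 8 complex I assembly factors (Ndufaf1 to Ndufaf8), 4 genes of complex II, 9 of complex III, 20 of complex IV and 16 of complex V. Ndufa4 and Ndufa4l2 were placed with complex IV, where the Ndufa4 protein is found, despite their names.

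The 4 KD_Polq samples, labelled polq knockdown, came from embryos injected with the RNA-cutting nuclease CasRX and a guide RNA targeting Polq. The 4 Control samples, labelled WT, received CasRX alone, so CasRX was common to both groups and a guide was present in KD_Polq only. Injection was at the one-cell stage, 20 h after human chorionic gonadotropin, RNA was taken 10 h later, and each sample pooled 5 embryos. Polq encodes DNA polymerase theta, which joins broken DNA ends, and the study asked what its knockdown does to the transcriptome. The submitters describe 4 biological replicates for each group, and nothing used here says whether they shared parents or collection days.

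The respiratory chain passes electrons from NADH (complex I) and succinate (complex II) through ubiquinone, complex III and cytochrome c to oxygen at complex IV. The proton gradient made on the way drives ATP synthesis by complex V. Most subunits are encoded in the nucleus and imported, a few core subunits are encoded by mitochondrial DNA, and complex II has nuclear subunits alone. The cleavage-stage embryo inherits its mitochondria from the oocyte.

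Library totals were 4726160 to 33650068 counts in KD_Polq and 33311679 to 43748629 counts in Control libraries, and KD_Polq replicates 1 to 3 were the 3 shallowest. The 97 rows took 1.22 to 1.62% of a library's counts. All 12 oocyte and 2-cell markers on the list used here were present, whereas 7 of 12 cumulus and granulosa markers, 6 of 7 sperm markers and 3 of 6 blood markers were at 0 in every library. Levels are given as CPM, counts per 1000000 after scaling by TMM, the trimmed mean of M values. The cumulus and granulosa markers together reached at most 22.4 CPM in a library, the sperm markers 7.34 CPM and the blood markers 16.2 CPM. Polq itself had 16.9, 38.9, 29.2 and 41.1 CPM in KD_Polq replicates 1 to 4, against 34.6, 49.7, 40.1 and 32.7 CPM in Control replicates 1 to 4. The groups overlapped, with a log2 fold change (KD_Polq minus Control) of -0.32 (SE 0.34), and a 2-sided exact permutation test gave p = 0.343. The labels are therefore used as labels, and lower Polq RNA in the KD_Polq libraries was not detected beyond the spread between libraries. RNA per cell and the number of cells cannot be told apart in such pools.

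Promoter sequences of 3 members are printed because they stand at the centre of the results: Cox6b2 was the member with the highest level, Cox6b1 is its general counterpart, and Ndufaf4 had the smallest p in the lower direction. Each window runs from 250 bases before to 50 after the start in RefSeq (GRCm38.p6), 5′ to 3′ on the gene's strand, and capitals mark matches to the motifs searched on both strands.
Cox6b2, chr7:4753045-4753344, minus strand: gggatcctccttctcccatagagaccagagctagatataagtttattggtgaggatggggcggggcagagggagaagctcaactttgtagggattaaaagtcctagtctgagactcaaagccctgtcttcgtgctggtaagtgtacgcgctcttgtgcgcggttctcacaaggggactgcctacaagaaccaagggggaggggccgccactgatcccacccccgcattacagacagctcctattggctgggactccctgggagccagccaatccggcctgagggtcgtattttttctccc
Cox6b1, chr7:30626065-30626364, minus strand: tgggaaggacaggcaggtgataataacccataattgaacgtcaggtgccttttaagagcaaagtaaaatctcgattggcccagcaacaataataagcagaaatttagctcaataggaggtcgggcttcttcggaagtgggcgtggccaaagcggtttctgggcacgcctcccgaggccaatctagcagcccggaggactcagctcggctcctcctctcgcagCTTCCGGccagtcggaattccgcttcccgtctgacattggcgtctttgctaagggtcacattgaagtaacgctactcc
Ndufaf4, chr4:24897833-24898132, plus strand: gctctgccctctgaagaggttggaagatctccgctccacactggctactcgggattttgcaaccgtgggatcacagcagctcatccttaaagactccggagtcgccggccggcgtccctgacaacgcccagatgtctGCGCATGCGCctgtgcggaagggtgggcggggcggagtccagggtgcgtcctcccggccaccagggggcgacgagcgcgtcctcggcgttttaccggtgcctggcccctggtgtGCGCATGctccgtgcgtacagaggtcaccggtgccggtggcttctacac
The letters searched were GCGCATG for the half-site of the factor NRF1 and CCGGAAG for the core of GABPA sites. They were AAGATGG for the core of YY1 sites, TATAAA for the TATA box and CACGTG for the E-box. The Cox6b2 window held none of them, the Cox6b1 window held 1 GABPA core on its minus strand, and the Ndufaf4 window held 3 matches to the NRF1 half-site, of which 2 overlap on opposite strands. Of the 75 members with a window in the table, 20.0% held the NRF1 half-site, against 8.13% of 8975 tested genes with a window. The GABPA core was in 25.3% of member windows and 20.1% of those of tested genes, and the YY1 core in 12 of the 75 member windows and in 8.85% of those of tested genes. The TATA box was in 10.7% and 9.76%, and the E-box in 8.0% and 11.7%. Median GC content was 58.5% in member windows and 59.7% in those of tested genes. These matches describe letters in the windows and nothing about binding.

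No member passed the test between KD_Polq and Control. Of 97 members, 92 had enough counts to be tested with edgeR's quasi-likelihood test, and 0 were called at a Benjamini-Hochberg adjusted p under 0.05 over all 13146 genes tested, of which 0% were called. At an unadjusted p under 0.05 there were 3 members, Atp5c1 and Cox4i1 with higher and Ndufaf4 with lower values in KD_Polq, or 3 of 92 against 2.81% of all genes tested. Those with higher values were 2 of 92 members, against 1.1% of all genes tested, and those with lower values 1 of 92, against 1.71%. No tested member had 4 KD_Polq values all above or all below the 4 Control values, whereas 2.98% of all genes tested did (1.44% higher and 1.54% lower in KD_Polq). The tested members split evenly, with 46 fold changes above and 46 below 0 and a median log2 fold change of -0.0019, or 0.0060 to 0.027 under other scalings. Over all genes tested, 53.4% were below 0 and the median was -0.047. DESeq2 and limma-voom also called 0 members, while DESeq2 called 20 genes of the whole table.

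Complex by complex, the summed RNA of the members overlapped between the groups in all 6 sets. Complex IV was the largest set, at 6514 ± 325 CPM in KD_Polq and 6925 ± 996 CPM in Control libraries (SD, n = 4 each), followed by complex I at 3282 ± 317 CPM in KD_Polq and 3311 ± 330.1 CPM in Control libraries. Complex V summed to 3038 ± 489 CPM in KD_Polq and 2899.6 ± 508 CPM in Control libraries, and complex III to 823 ± 267 CPM in KD_Polq and 861 ± 173 CPM in Control libraries. The complex I assembly factors summed to 547 ± 110.4 CPM in KD_Polq and 650.0 ± 47.4 CPM in Control libraries. Complex II was by far the smallest, at 44.7 ± 9.81 CPM in KD_Polq and 37.9 ± 9.103 CPM in Control libraries. In all, the 93 protein-coding members summed to 14249 ± 1231 CPM in KD_Polq and 14685 ± 1805 CPM in Control libraries. The 10 highest members made up 50.4% of the summed level.

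**Figure D1:**
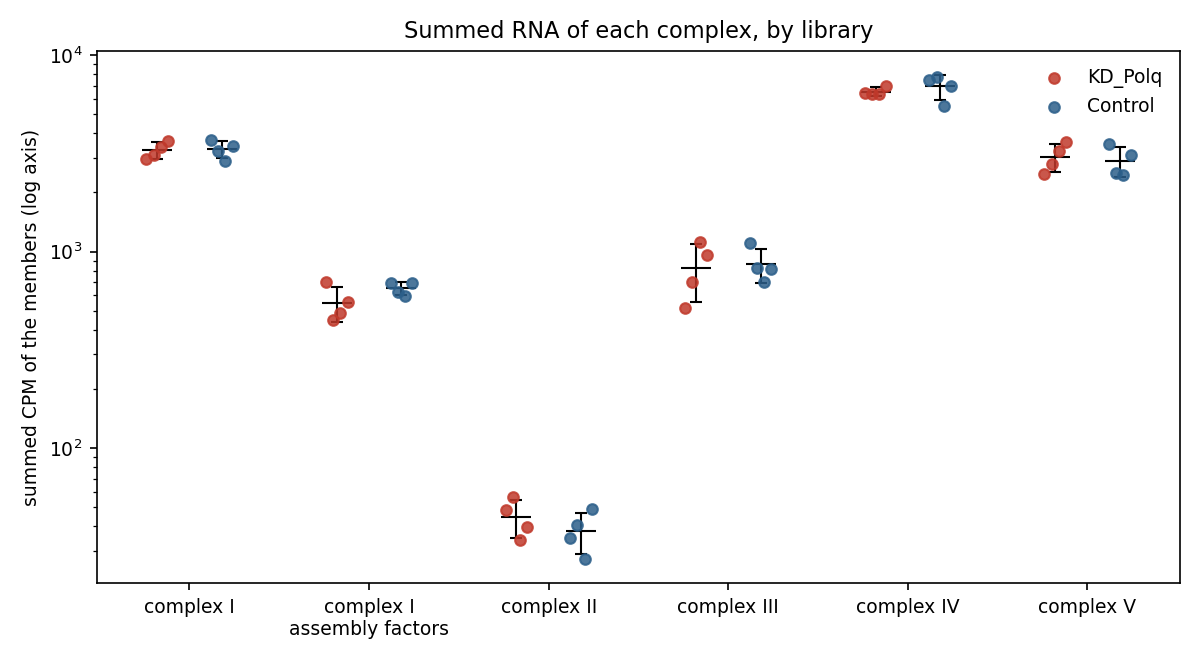
Summed CPM of the members of each complex in every library, on a log axis, with KD_Polq libraries in red to the left of Control libraries in blue. Black bars give the mean and SD of 4 libraries. The 2 groups overlap in each set, and complex II lies far below the others.

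Complex I takes electrons from NADH. Its 7 nuclear core subunits, which carry the flavin and iron-sulphur clusters, were lower per transcript length than the accessory subunits around them, at a median of 13.8 against 56.6 CPM per kb over the 8 libraries. The order held when length was taken as all annotated exons together, at 6.61 against 20.2 CPM per kb. Among the core genes, Ndufv2 stood highest, at 98.7 CPM per kb. Ndufs8 stood at 67.5, Ndufs3 at 13.8, Ndufs7 at 10.98 and Ndufs1 at 3.94 CPM per kb. Ndufv1, the subunit that binds NADH and the flavin, was lowest at 0.6397 CPM per kb. Between neighbours among these named genes the difference was larger than the SD over the 8 libraries of both genes for Ndufs8 over Ndufs3, Ndufs7 over Ndufs1 and Ndufs1 over Ndufv1, and not for the other pairs.

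Ndufv1 was at or near 0 in most libraries. Its levels were 0, 1.34, 0.578 and 2.82 CPM in KD_Polq replicates 1 to 4, against 0, 0, 3.09 and 0 CPM in Control replicates 1 to 4. It was thus at 0 in 4 libraries, 1 of KD_Polq and 3 of Control, and 135 of its counts in Control came from replicate 3 alone. Ndufv2, its partner in the NADH-oxidising module, had 54.9, 193, 165 and 127 CPM in KD_Polq replicates 1 to 4, against 248, 74.8, 75.6 and 98.2 CPM in Control replicates 1 to 4, where Control replicate 1 was the highest of the 8 and KD_Polq replicate 1 the lowest. Ndufs8 averaged 73.8 ± 21.3 CPM in KD_Polq and 58.5 ± 34.4 CPM in Control libraries (SD, n = 4 each). Ndufs1, Ndufs3 and Ndufs7 stayed under 20 CPM in every library. Among the core genes 6 of 7 fold changes were above 0, with a median log2 fold change of 0.31, and 0 of the 7 had an unadjusted p under 0.05.

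The 29 accessory genes of complex I ran from 2.63 to 674 CPM over the 8 libraries, with 14 fold changes above and 15 below 0. Ndufa2 was the highest, at 678 ± 84.4 CPM in KD_Polq and 669.6 ± 87.6 CPM in Control libraries. Ndufb6, of the membrane arm, followed at 321 ± 84.9 CPM in KD_Polq and 345 ± 63.2 CPM in Control libraries. The smallest p among complex I subunits was that of Ndufa6, an accessory subunit that binds an acyl carrier protein. Ndufa6 had 29.9, 28.2, 51.8 and 54.5 CPM in KD_Polq replicates 1 to 4, against 91.6, 49.96, 75.8 and 47.01 CPM in Control replicates 1 to 4. The 2 lowest KD_Polq libraries lay below all Control libraries and the 2 others within their range, with a log2 fold change of -0.68 (SE 0.33, edgeR adjusted p = 0.99998).

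Ndufs6, a zinc-binding accessory subunit, had 24.4, 31.95, 11.3 and 13.1 CPM in KD_Polq replicates 1 to 4, against 6.02, 11.9, 9.84 and 13.7 CPM in Control replicates 1 to 4. KD_Polq replicates 1 and 2 were above every Control library and replicates 3 and 4 within their range (log2 fold change 0.96, SE 0.49). It shares 8.33% of its 50-base stretches with the pseudogene Ndufs6b. Ndufv3 averaged 27.5 ± 14.4 CPM in KD_Polq and 45.6 ± 16.6 CPM in Control libraries, with a log2 fold change of -0.72 (SE 0.46), and Ndufb8 62.7 ± 13.01 CPM in KD_Polq and 48.9 ± 8.36 CPM in Control libraries, with one of 0.36 (SE 0.25). Over the 36 subunit genes the median log2 fold change was 0.069, with 20 above and 16 below 0.

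Of the 8 assembly factors of complex I, which act during assembly and are absent from the finished enzyme, Ndufaf2 was the highest, at 262 ± 51.4 CPM in KD_Polq and 288 ± 18.9 CPM in Control libraries. Ndufaf4 lies at chr4:24898083-24905001, plus strand (GRCm38), with 2 exons and no 50-base stretch shared with another gene. Its levels were 201, 91.6, 131 and 112 CPM in KD_Polq replicates 1 to 4, against 178, 215, 166 and 241 CPM in Control replicates 1 to 4. KD_Polq replicates 2 to 4 were below all Control libraries, and KD_Polq replicate 1 was within their range. The log2 fold change was -0.58 (SE 0.26, edgeR adjusted p = 0.99998). Ndufaf5, an enzyme that modifies Ndufs7, averaged 46.5 ± 20.1 CPM in KD_Polq and 59.9 ± 18.9 CPM in Control libraries, with a log2 fold change of -0.37 (SE 0.36). The other 5 assembly factors had an unadjusted p above that of Ndufaf5, and Ndufaf1 was at 0 in replicate 2 of both groups.

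On a wider list of 18 complex I assembly genes, which holds the 8 Ndufaf genes, 15 were tested, 0 were called, 5 had fold changes above and 10 below 0, and the median log2 fold change was -0.32. The smallest p on it was that of Lyrm2, at 23.5 ± 11.8 CPM in KD_Polq and 53.9 ± 19.5 CPM in Control libraries (log2 fold change -1.19, SE 0.45).

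Complex II, succinate dehydrogenase, was low throughout, with its 4 genes averaging 8.44 to 12.5 CPM over the 8 libraries. Sdha, the flavoprotein that oxidises succinate, had 4.16, 13.6, 19.9 and 0.501 CPM in KD_Polq replicates 1 to 4, against 3.302, 15.2, 4.99 and 5.86 CPM in Control replicates 1 to 4. Sdhb, the iron-sulphur subunit, had 10.3, 6.93, 4.97 and 3.95 CPM in KD_Polq replicates 1 to 4, against 16.5, 6.02, 11.5 and 13.9 CPM in Control replicates 1 to 4. KD_Polq replicates 3 and 4 were below all Control values of Sdhb, while KD_Polq replicates 1 and 2 lay within their range. Sdhc, a membrane anchor, had 29.7, 17.6, 1.96 and 1.07 CPM in KD_Polq replicates 1 to 4, against 6.08, 11.5, 10.3 and 10.4 CPM in Control replicates 1 to 4. Sdhd, the other anchor, had 4.16, 18.3, 7.28 and 34.3 CPM in KD_Polq replicates 1 to 4, against 9.08, 7.62, 0.457 and 18.7 CPM in Control replicates 1 to 4. For Sdhc the KD_Polq values lay on both sides of the Control range, and for Sdhd the groups overlapped. The log2 fold change was -0.88 (SE 0.59) for Sdhb and 0.85 (SE 0.96) for Sdhd, the 2 with the smallest p. That of Sdhd was 0.15 without KD_Polq replicate 4 and 1.49 without Control replicate 4.

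The median log2 fold change of complex II, 0.38, was -1.44 with limma-voom in place of edgeR. Per length the 4 genes spanned 2.91 (Sdha) to 10.2 (Sdhd) CPM per kb, and neighbours in that order (Sdhd, Sdhb, Sdhc, Sdha) were not separated beyond the spread of their libraries. Of 4 complex II assembly genes, 3 were tested, all with fold changes below 0 and 0 called (median -0.32). Sdhaf2, which helps attach the flavin to Sdha, averaged 7.15 ± 7.403 CPM in KD_Polq and 26.7 ± 26.95 CPM in Control libraries (log2 fold change -1.91, SE 1.02). The fold change was -2.71 without KD_Polq replicate 1 and -0.93 without Control replicate 3. Sdhaf4 averaged 77.6 ± 40.3 CPM in KD_Polq and 89.4 ± 49.4 CPM in Control libraries (log2 fold change -0.21, SE 0.45).

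Complex III moves electrons from ubiquinol to cytochrome c. Its nuclear subunits that carry redox groups were low, whereas the highest of its small accessory subunits stood well above them. Cyc1, cytochrome c1, averaged 6.96 ± 2.98 CPM in KD_Polq and 9.06 ± 6.58 CPM in Control libraries and Uqcrfs1, the Rieske iron-sulphur protein, 12.97 ± 6.12 CPM in KD_Polq and 21.2 ± 9.502 CPM in Control libraries. Of the 2 large core proteins, Uqcrc1 stood at 5.55 ± 8.999 CPM in KD_Polq and 3.25 ± 1.88 CPM in Control libraries and Uqcrc2 stood at 36.2 ± 11.1 CPM in KD_Polq and 32.03 ± 18.8 CPM in Control libraries. Of the 5 accessory genes, Uqcr10 was highest at 373 ± 186 CPM in KD_Polq and 355 ± 92.2 CPM in Control libraries. Per length, Uqcr10 stood at 839 CPM per kb, Uqcrfs1 at 12.5 and Cyc1 at 5.27 CPM per kb.

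Uqcr11, a small membrane subunit, had 41.4, 36.1, 57.1 and 44.1 CPM in KD_Polq replicates 1 to 4, against 61.1, 89.3, 43.4 and 68.2 CPM in Control replicates 1 to 4. KD_Polq replicates 1 and 2 were below every Control library (log2 fold change -0.55, SE 0.28, edgeR adjusted p = 0.99998). Uqcrh, the acidic hinge protein near cytochrome c1, had 110.1, 128, 117 and 194 CPM in KD_Polq replicates 1 to 4, against 207, 224, 119 and 179 CPM in Control replicates 1 to 4. KD_Polq replicates 1 and 3 were below all Control libraries, and KD_Polq replicates 2 and 4 were within their range (log2 fold change -0.41, SE 0.26). Both share part of their sequence with a pseudogene, 10.9% of 50-base stretches for Uqcr11 and 7.83% for Uqcrh. Complex III as a whole had 4 fold changes above and 5 below 0 and a median of -0.13, which was 0.26 without Control replicate 1. Of 6 complex III assembly genes, all tested, 0 were called, 2 were above and 4 below 0, and the median was -0.50. Uqcc2 averaged 12.7 ± 7.204 CPM in KD_Polq and 25.6 ± 13.4 CPM in Control libraries (log2 fold change -1.01, SE 0.63) and Uqcc3 284 ± 82.3 CPM in KD_Polq and 223 ± 42.2 CPM in Control libraries (log2 fold change 0.35, SE 0.25).

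**Figure D2:**
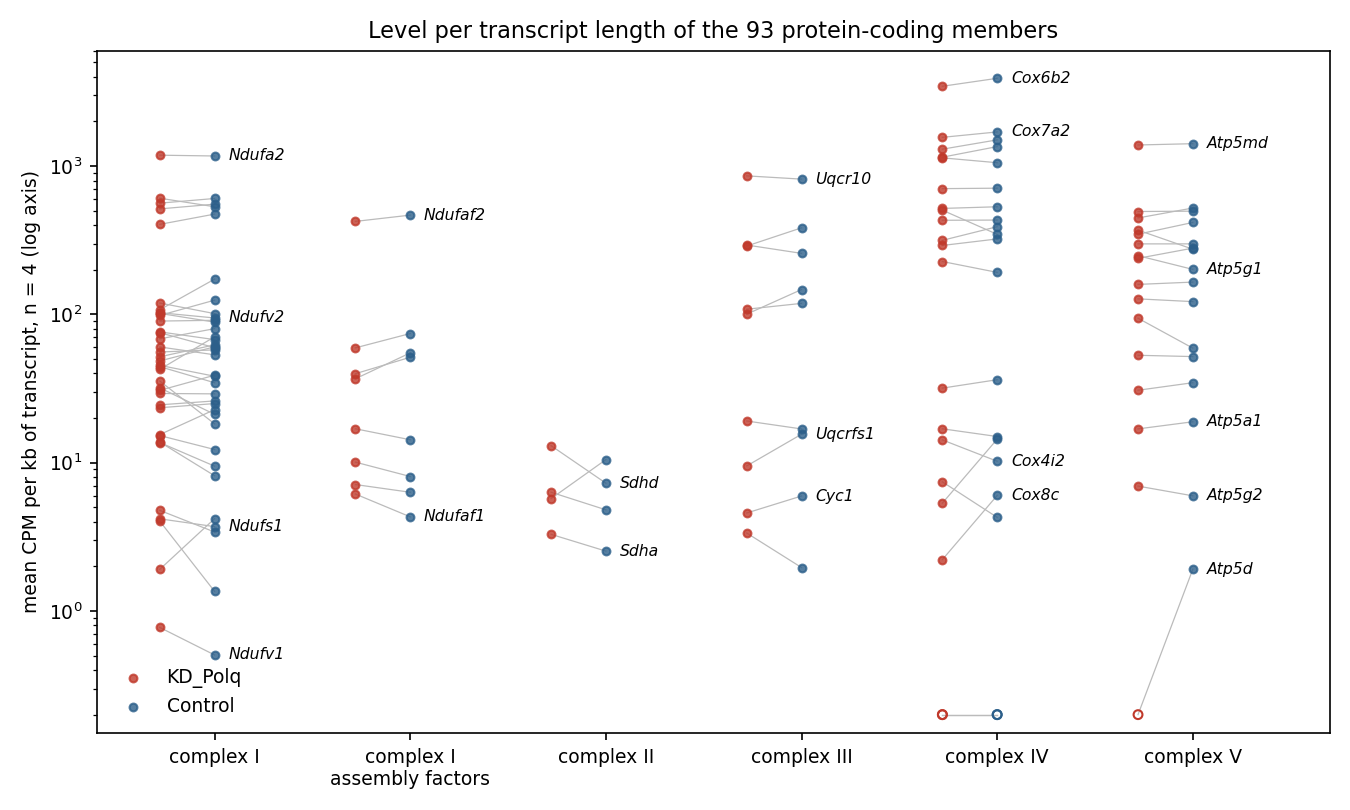
Mean CPM per kb of transcript for each of the 93 protein-coding members, on a log axis, KD_Polq (red, left) joined to Control (blue, right), n = 4 libraries each. Open circles at the bottom stand for a mean of 0. Cox6b2 lies above all other members, and complex II has no member above 13.03 CPM per kb in either group.

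Complex IV, cytochrome c oxidase, gave the highest levels of the chain. Cox6b2, the isoform of subunit 6b first described in testis, was the highest member in 7 of 8 libraries and ranked 56 among all genes tested by mean CPM. It lies at chr7:4751792-4753094, minus strand (GRCm38). Its levels were 1865, 1552, 1061 and 1537 CPM in KD_Polq replicates 1 to 4, against 1669, 2346, 1350.1 and 1440.0 CPM in Control replicates 1 to 4. KD_Polq replicate 3 was the lowest library, Control replicate 2 the highest and the ranges overlapped, with a log2 fold change of -0.18 (SE 0.22, 95% interval of the fold 0.6303 to 1.24). It made up 7.25 to 15.6% of the summed member level of a library.

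Cox6b1, the general isoform of the same subunit, averaged 252 ± 94.4 CPM in KD_Polq and 259 ± 70.9 CPM in Control libraries. The ratio of Cox6b2 to Cox6b1, per length, was 14.9, 8.305, 3.63 and 5.15 in KD_Polq replicates 1 to 4, against 6.73, 10.03, 9.27 and 4.83 in Control replicates 1 to 4. Cox6b2 was above Cox6b1 in all 8 libraries, also with length taken as all annotated exons together (2.08 to 8.55), and the groups overlapped. Neither gene shares a 50-base stretch with another gene. This pair was the exception among the isoforms of complex IV.

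Elsewhere the general isoform prevailed. Cox4i2, known from lung, averaged 10.4 ± 7.68 CPM in KD_Polq and 7.47 ± 6.14 CPM in Control libraries, and its ratio to Cox4i1 per length ran from 0.0112 to 0.0557 over the 8 libraries. Cox7a1, the heart and muscle isoform, averaged 13.98 ± 8.22 CPM in KD_Polq and 15.9 ± 11.9 CPM in Control libraries, and its ratio to Cox7a2 ran from 0.00526 to 0.0405. Control replicate 1 was the highest library for Cox7a1 and the highest Control library for Cox4i2. Cox6a2, the other heart and muscle isoform, averaged 5.05 ± 3.99 CPM in KD_Polq and 2.91 ± 2.63 CPM in Control libraries, Cox7b2 2.89 ± 4.49 CPM in KD_Polq and 7.81 ± 11.8 CPM in Control libraries and Cox8c, known from testis, 1.02 ± 1.14 CPM in KD_Polq and 2.75 ± 3.28 CPM in Control libraries. Cox7b2 was at 0 in 3 libraries, Cox8c in 2 and Cox6a2 in 1. Cox8b and Ndufa4l2 had 0 counts in all 8 libraries, where 3 counts correspond to 0.0686 to 0.595 CPM.

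**Figure D3:**
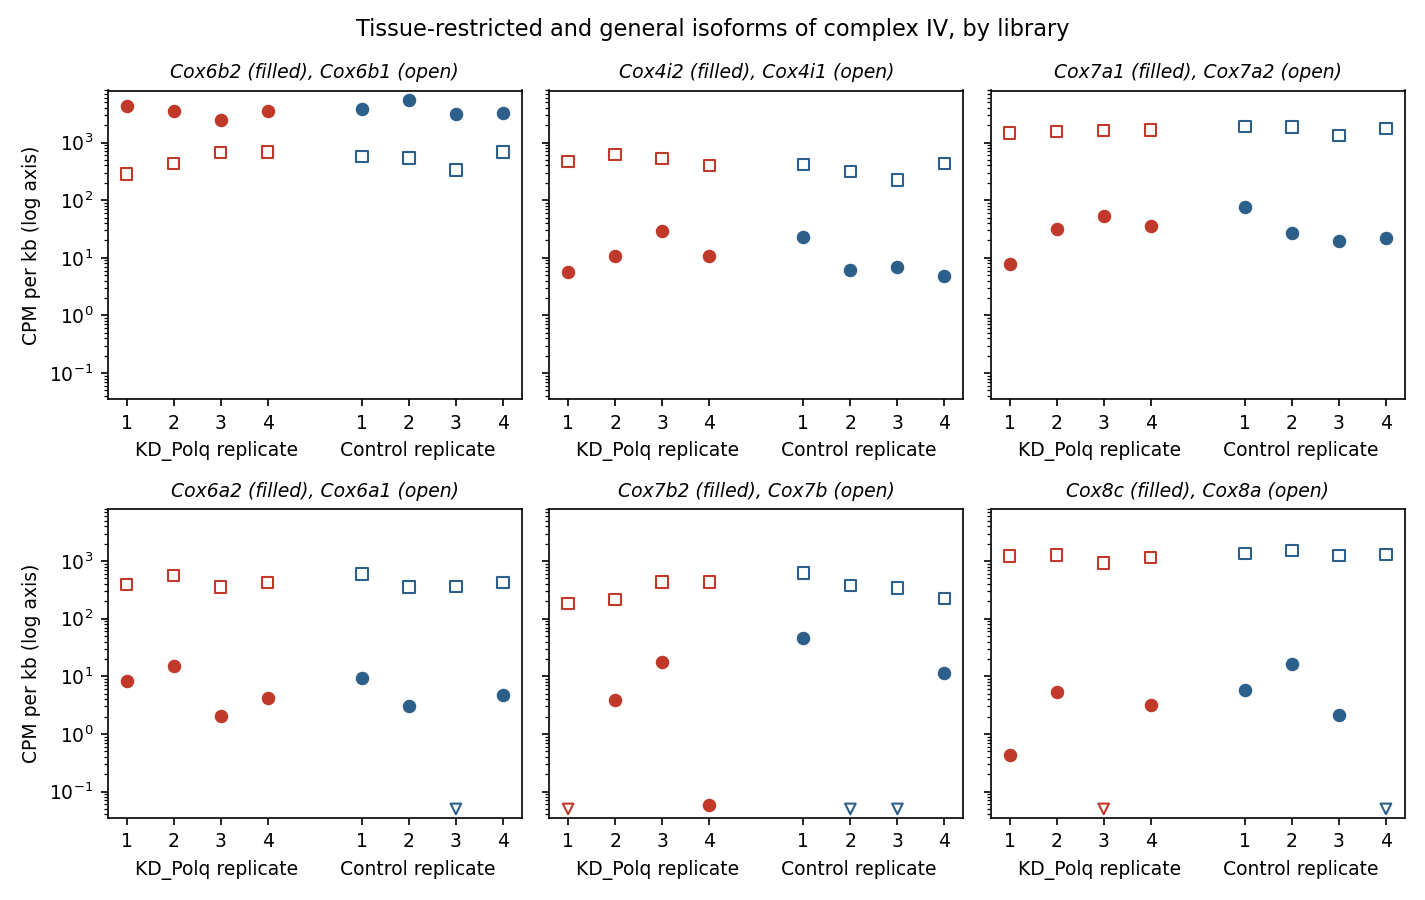
CPM per kb of transcript in each library for 6 tissue-restricted isoforms of complex IV (filled circles) and their general counterparts (open squares), on a log axis, with KD_Polq in red to the left of Control in blue. Triangles mark 0. Cox6b2 lies above Cox6b1 in all 8 libraries, and the other 5 tissue-restricted isoforms lie below their counterparts in all 8.

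Among the general subunits of complex IV, Cox7a2 was the highest, at 962, 1019, 1062 and 1079 CPM in KD_Polq replicates 1 to 4, against 1248, 1217, 867 and 1151 CPM in Control replicates 1 to 4. The 4 KD_Polq values lay within the Control range (log2 fold change -0.12, SE 0.14, 95% interval of the fold 0.735 to 1.15). Cox4i1, the general isoform of subunit 4, had 351, 470.4, 401 and 301 CPM in KD_Polq replicates 1 to 4, against 312, 237, 169.9 and 329 CPM in Control replicates 1 to 4. Its 3 highest values were all from KD_Polq, while KD_Polq replicate 4 was below Control replicates 1 and 4. The log2 fold change was 0.54 (SE 0.23, edgeR adjusted p = 0.99998). Cox4i1 (chr8:120668222-120674207, plus strand, GRCm38) overlaps exons of Emc8 on the other strand. The strand setting was not known, and the share of Cox4i1 reads that lie within this overlap was not measured.

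Cox8a, the general isoform of subunit 8, had 672, 703, 512 and 640.5 CPM in KD_Polq replicates 1 to 4, against 747, 833, 693 and 706 CPM in Control replicates 1 to 4. KD_Polq replicates 1, 3 and 4 lay below all Control libraries and replicate 2 between Control replicates 3 and 4 (log2 fold change -0.24, SE 0.15). The 11 general subunits ran from 113 to 1076 CPM over the 8 libraries. Over all 18 tested genes of complex IV, 6 fold changes were above and 12 below 0, with a median of -0.078. Of 23 complex IV assembly genes, 19 were tested, 7 were above and 12 below 0, 0 were called, and the median was -0.11. The groups did not overlap for 1 of these 19, the assembly factor Cmc2, against 2.98% of all genes tested. Cmc2 had 10.1, 13.0, 19.1 and 16.98 CPM in KD_Polq replicates 1 to 4, against 51.8, 35.6, 32.8 and 34.6 CPM in Control replicates 1 to 4 (log2 fold change -1.38, SE 0.34, edgeR adjusted p = 0.99998). Coa7 averaged 39.6 ± 14.2 CPM in KD_Polq and 28.99 ± 7.05 CPM in Control libraries (log2 fold change 0.45, SE 0.33).

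Complex V, the ATP synthase, has a catalytic F1 head, a ring of c subunits, a peripheral stalk and small membrane subunits. Atp5c1, which encodes the gamma subunit that turns inside F1, had the smallest p of all members. It lies at chr2:10056016-10080510, minus strand (GRCm38), and 3.97% of its 50-base stretches occur in other genes. Its levels were 100.9, 128, 90.4 and 120.0 CPM in KD_Polq replicates 1 to 4, against 59.2, 56.8, 64.9 and 95.4 CPM in Control replicates 1 to 4. All KD_Polq libraries but replicate 3 were above all Control libraries, and replicate 3 was below Control replicate 4. The log2 fold change was 0.67 (SE 0.24, 95% interval of the fold 1.103 to 2.296, edgeR adjusted p = 0.99998).

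Among the other F1 genes, Atp5a1 (alpha) averaged 43.5 ± 7.32 CPM in KD_Polq and 48.6 ± 8.76 CPM in Control libraries. Atp5b (beta) averaged 102 ± 15.3 CPM in KD_Polq and 99.6 ± 12.5 CPM in Control libraries. Atp5e (epsilon) averaged 100.6 ± 17.99 CPM in KD_Polq and 118 ± 42.3 CPM in Control libraries. Alpha and beta are present in equal numbers in the enzyme, and their RNA stood at 17.9 and 52.5 CPM per kb. This gap depends on the length taken, here 2572.5 bases for Atp5a1 and 1916 for Atp5b. All annotated exons together span 3135 and 4237 bases, which narrows the gap. Atp5d, which encodes the delta subunit of the central stalk, was detected in Control libraries only. It had 0 counts in all 4 KD_Polq libraries, against 2, 47, 87 and 154 counts in Control replicates 1 to 4, or 0.0611, 1.48, 1.99 and 3.58 CPM.

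Over the group, 3 counts in KD_Polq would be 0.0557 CPM. The pooled Control level of Atp5d was 1.92 CPM, 34.4 times this floor, or 22.6 times it without Control replicate 4. This ratio covers counting error only. Pooling ignores the spread between libraries, so the ratio sets no bound on the difference between the groups. In single libraries 3 counts correspond to 0.09401 to 0.595 CPM in KD_Polq. The 0.0611 CPM of Control replicate 1 lies below all 4 of these values. Atp5d was too low to be tested, and with the filter on low counts removed edgeR gave an unadjusted p of 0.0186 and an adjusted p of 0.438. Atp5d (chr10:80138632-80145818, plus strand, GRCm38) overlaps exons of Cbarp on the other strand.

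The c ring is encoded by 3 genes whose mature proteins are identical. Atp5g1 supplied most of the RNA, with 488, 722, 736 and 719 CPM in KD_Polq replicates 1 to 4, against 676, 385, 539 and 555 CPM in Control replicates 1 to 4. KD_Polq replicate 1 stood below the other KD_Polq libraries, which were above all Control libraries (log2 fold change 0.31, SE 0.20). Atp5g3 averaged 91.5 ± 13.2 CPM in KD_Polq and 87.7 ± 33.8 CPM in Control libraries and Atp5g2 4.07 ± 2.35 CPM in KD_Polq and 3.505 ± 2.49 CPM in Control libraries, and most of the sequence of Atp5g2 is shared with other genes, so its level is uncertain. Per length, Atp5g1 stood at 225, Atp5g3 at 125 and Atp5g2 at 6.47 CPM per kb.

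The 3 peripheral stalk genes that the rule found, Atp5pb, Atp5h and Atp5j, averaged 239.5 to 318 CPM over the 8 libraries. Atp5o, also a stalk gene, was not matched by the rule. Among the 5 membrane accessory genes Atp5md was the highest, at 503 ± 109.6 CPM in KD_Polq and 513 ± 97.4 CPM in Control libraries, and Atp5l the lowest. Complex V had 7 fold changes above and 8 below 0 and a median of -0.0070, which was 0.0014 to 0.021 under the other scalings. Of 4 complex V assembly genes, all tested and 0 called, 2 were above and 2 below 0, with a median of 0.011. Tmem70, needed to build the c ring, averaged 36.6 ± 11.4 CPM in KD_Polq and 48.1 ± 14.5 CPM in Control libraries (log2 fold change -0.40, SE 0.33), and Atpif1, the inhibitor of the enzyme in reverse, 454 ± 118 CPM in KD_Polq and 499 ± 47.6 CPM in Control libraries (log2 fold change -0.14, SE 0.19).

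**Figure D4:**
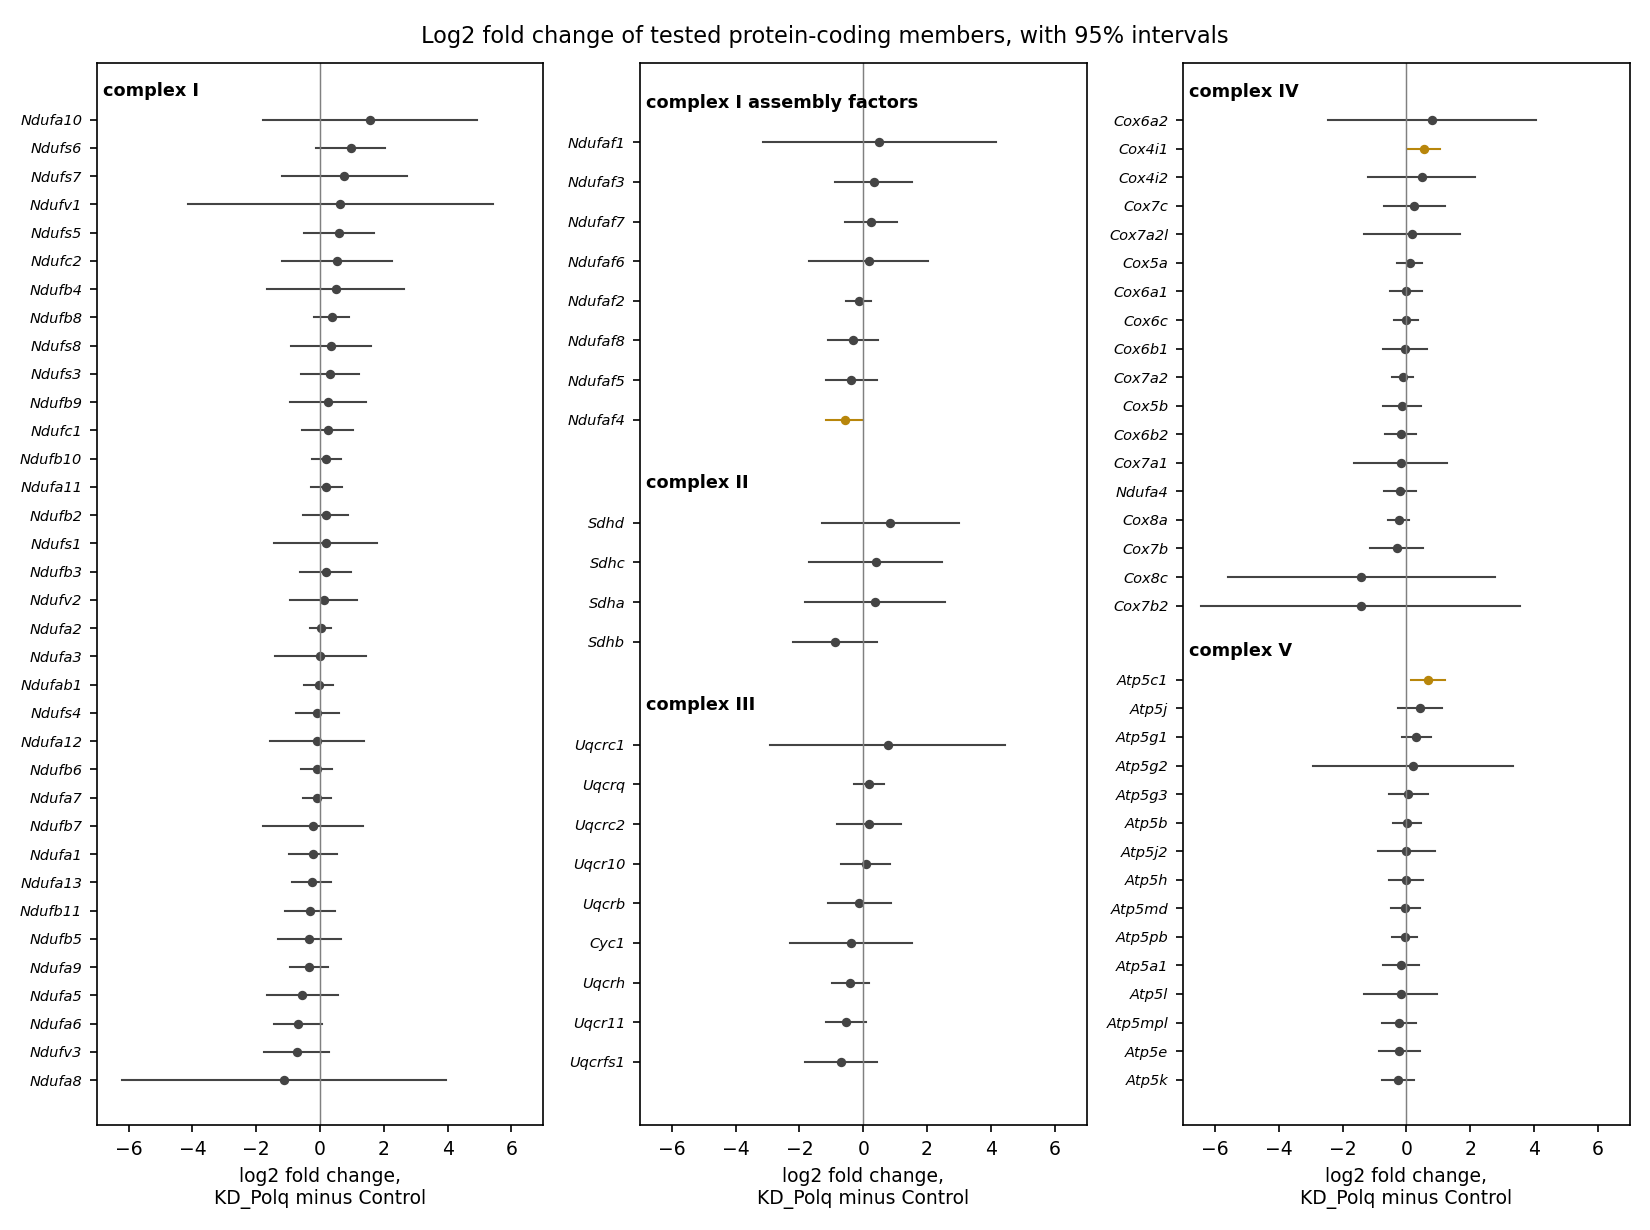
Log2 fold change (KD_Polq minus Control) of the tested protein-coding members with 95% intervals, sorted within each complex, of which 1 is not drawn. Gold marks the 3 with an unadjusted p under 0.05 (Ndufaf4, Cox4i1 and Atp5c1), and 0 of the 90 had an adjusted p under 0.05.

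The precision of these comparisons followed the level of the genes. Among the 30 tested protein-coding members under 20 CPM, the median coefficient of variation over the 8 libraries was 62.7% and the 95% interval of the fold extended 3.69-fold to either side at the median. Between 20 and 100 CPM (23 members) these were 33.0% and 1.73-fold, and from 100 CPM on (37 members) 23.7% and 1.42-fold. Complex II and most core and catalytic subunits were in the lowest class. Intervals lay wholly within a 2-fold difference either way for 38 of 90 members (42.2%), against 15.5% of all genes tested, and within 1.5-fold for 13 (14.4%), against 2.99%.

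**Figure D5:**
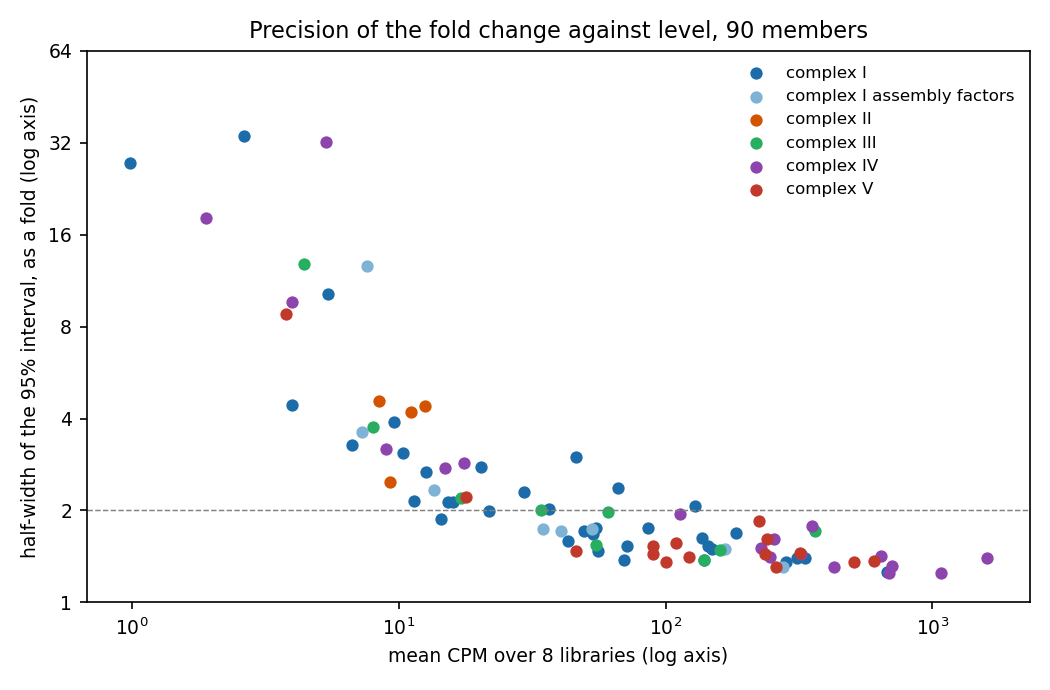
Half-width of the 95% interval of the fold (log axis) against mean CPM over 8 libraries (log axis) for the 90 tested protein-coding members, coloured by complex. The dashed line marks 2-fold. Members from 100 CPM on have a median half-width of 1.42-fold, and those under 20 CPM one of 3.69-fold.

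The mitochondrially encoded partners of these subunits were far more abundant. Their summed level was 10.3 ± 3.67 times that of the nuclear members in KD_Polq and 9.81 ± 2.41 times in Control libraries (SD, n = 4 each), and the groups overlapped. Of the 13 genes, 12 were tested, 0 were called, 11 fold changes were above and 1 below 0, and the median was 0.13. The smallest p were those of mt-Nd2, at a log2 fold change of -0.23 (SE 0.22), and mt-Nd6, at 0.13 (SE 0.17).

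Of 16 genes for ubiquinone and cytochrome c, the mobile carriers, 14 were tested, 7 were above and 7 below 0, and 0 were called (median 0.072). The groups did not overlap for 1 of these 14, the ubiquinone biosynthesis gene Coq4, against 2.98% of all genes tested. Coq4 had 20.8, 29.3, 19.6 and 13.7 CPM in KD_Polq replicates 1 to 4, against 2.996, 12.7, 10.5 and 3.77 CPM in Control replicates 1 to 4 (log2 fold change 1.47, SE 0.57, edgeR adjusted p = 0.99998). Coq10b averaged 114 ± 32.7 CPM in KD_Polq and 152 ± 40.8 CPM in Control libraries (log2 fold change -0.41, SE 0.27). Of 10 regulators of nuclear respiratory genes, 6 were tested, all with fold changes above 0 and 0 called (median 0.33). Gabpa, the DNA-binding subunit of the factor NRF2/GABP, averaged 438 ± 74.9 CPM in KD_Polq and 352 ± 51.6 CPM in Control libraries (log2 fold change 0.32, SE 0.18), and its partner Gabpb1 285 ± 42.2 CPM in KD_Polq and 222 ± 63.1 CPM in Control libraries (log2 fold change 0.36, SE 0.22).

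The 4 pseudogene rows stayed low. Cox6c2 averaged 0.806 ± 0.348 CPM in KD_Polq and 0.4704 ± 0.247 CPM in Control libraries and Ndufs6b 0.625 ± 0.7702 CPM in KD_Polq and 0.571 ± 0.792 CPM in Control libraries, both tested and not called, while Ndufa11b was under 1 CPM in every library and Ndufb4c had 0 counts in all 8. Of the 93 protein-coding members, 54 share no 50-base stretch with another gene and 12 share over 20% (Ndufs3, Ndufs5, Ndufa12, Ndufb4, Ndufb9, Uqcrb, Cox5b, Cox7c, Atp5g2, Atp5pb, Atp5h and Atp5l), so the levels of these 12 are uncertain. A further limit is that 29 of the 93 have an exon overlapping one on the other strand.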

How the data were processed

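RNA was sequenced from 8 pools of mouse 2-cell embryos, 4 KD_Polq and 4 Control. The deposited table holds expected counts per gene, 1 unscaled column for each library. The submitters' processing notes name RSEM 1.2.28, STAR 2.7.3a and Trim Galore 0.6.10, and the builds GRCm38 and mm10. Neither the annotation release nor the strand setting is stated there. As RSEM divides reads that fit several genes by estimation, levels of genes with near-identical copies are uncertain.

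The expected counts were rounded, which altered 4.22% of values. Genes were kept by edgeR's filterByExpr (minimum count 10, minimum total 15) and scaled by TMM, then compared by the robust quasi-likelihood test of edgeR 4.0.16 (R 4.3.3) with group as the sole term. Benjamini-Hochberg adjustment ran over all 13146 tested genes, and calls needed an adjusted p under 0.05. A 2-sided exact permutation test was added for Polq. P-values measure the spread between these samples. The common biological coefficient of variation was 0.988, and 1 count was worth 0.0229 to 0.198 CPM. Floors cover counting error only. The procedure was tested on simulated data.

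Levels per kb used the median transcript length of GENCODE M21 (GRCm38), which gave positions, overlaps and shared stretches of 50 bases. Promoters came from RefSeq (GRCm38.p6).

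The genes, lists and tests were chosen with earlier results of these data known. Named were Polq, the 2 members of each complex with the highest mean CPM and the 2 (complex I: 4) with the smallest p, the subunits of complex II, core, catalytic and c-ring subunits, tissue-restricted isoforms, and the 2 genes of each related list with the smallest p. Fold changes are printed for those chosen by p and for Cox6b2 and Cox7a2, a choice made after values were seen. A gene that this rule names is not reported here. Uqcrc1, Uqcrc2 and Cox6b1 were named after their values were seen. Alternatives were other scalings, filters and tests (DESeq2 1.42.0, limma 3.58.1), thinning, a block for replicate number and leaving out libraries.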

Additional observations from a re-analysis of the deposited data

Results flagged for a closer look

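Of 104 groups of 4 libraries examined, 6 held a library far from the other 3 by Dixon's criterion at the 95% level, and chance gives about 1 in 20. In KD_Polq, the lowest value of Atp5g1, replicate 1, was 488 CPM beside a group median of 720.2 CPM. The summed level of complex IV in KD_Polq was flagged for its highest library, 6995 CPM beside a median of 6378 CPM. In Control, Ndufv1 was at 3.09 CPM in replicate 3 and at 0 in the other 3 libraries. Control replicate 1 stood high in 3 genes. It held 248 CPM of Ndufv2 beside a group median of 86.9 CPM, 16.6 CPM of Cox4i2 beside 4.84 CPM, and 33.6 CPM of Cox7a1 beside 10.7 CPM.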

How the results depend on the processing

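Under all 21 alternatives 0 members were called. The number of genes called in the whole table was 0 under 20 of them and 20 with DESeq2. The replicate numbers did not pair the libraries (correlations of same-numbered deviations -0.075 to 0.0085), and with the replicate number as a block 0 genes and 0 members were called. Members whose groups do not overlap numbered 0, against 2 (Atp5d and Cox8a, both lower in KD_Polq) with no filter on low counts, or 2.13% of members against 1.98% of all genes. With 1 library left out they were 1 to 4, or 1.09 to 4.35% of members against 5.19 to 7.22% of all genes. The median of complex II, 0.38, was -1.44 with limma-voom, -0.89 with limma-voom and quality weights and -2.38 with KD_Polq replicate 4 alone against the 4 Control libraries. That of complex III, -0.13, ran from -0.34 to 0.26 when 1 library was left out, the last without Control replicate 1. The median of all genes shifted from -0.047 to -0.16 with no filter and to -0.36 with KD_Polq replicate 4 alone. Of 32 printed fold changes, 6 turned sign under an alternative. Cox6b2 ran from -0.30 to 0.021 and Sdhaf4 from -0.55 to 0.26 with 1 library left out. With KD_Polq replicate 4 alone the value was 0.073 for Polq, 0.0013 for Ndufv3, 0.098 for Uqcrh, 0.028 for Sdhaf4 and 0.35 for Atpif1. Of 26 named members whose fold changes are not printed, 20 turned sign under at least 1 alternative. Of 1104 recomputed mean levels of named genes, 40 moved by over 1 SD of their group, all of them when mitochondrially encoded genes left the library totals. Leaving out 1 of 4 libraries cannot by itself shift a group mean by 1 SD. The levels with 1 library left out therefore say nothing about stability. Causes were not tested. With 1 library left out, 2 printed fold changes moved by over 1.5 times, those of Sdhd and Sdhaf2. Depth limits what can be seen near 0, where 3 counts are 0.0686 to 0.595 CPM, and 3 of the 4 KD_Polq libraries were the shallowest.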
